A study of Mus musculus with 3 samples.

Results

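Mesodermal bHLH transcription factor genes were examined in 3 ChIP-Seq libraries of mouse embryonic stem cells (ESCs), 1 library per group. The genes were chosen by name for their family and lineage, with earlier results of these data known. All 10 of them were found among the 22350 protein-coding genes of the GENCODE vM1 annotation of mm9 used here: Hand1, Hand2, Mesp1, Mesp2, Msgn1, Twist1, Twist2, Tcf15, Tcf21 and Myod1. The H2A.Z WT library came from ESCs that carried a doxycycline-inducible H2A.Z fused to yellow fluorescent protein (YFP), and the H2A.Z AP3 library from ESCs with the same kind of transgene in which acidic patch residues of H2A.Z had been exchanged for those of H2A (G92N, D97N and S98K). In both, hairpins against the 3′ UTR of the endogenous transcript were used to deplete endogenous H2A.Z, the transgene was read from a CMV promoter under the drug-inducible activator rtTA, and cells were sorted for YFP before chromatin was precipitated with an anti-GFP antibody. Neither library therefore measured untagged H2A.Z. The third library was made with an antibody against H3K27me3 from cells whose label reads WT and names no transgene, so the mark was not measured in cells labelled as H2A.Z AP3. The strain is given as V6.5 (129SvJaexC57BL/6) for all 3 samples, whereas the treatment text names KH2 ESCs as the parents of the transgenic lines. The cells had been kept on fibroblast feeders, which were left out at the last passage.

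Basic helix-loop-helix (bHLH) factors bind DNA as dimers through a basic stretch and pair through a pair of helices. Tissue-restricted members usually pair with the broadly expressed E proteins, and Id proteins, which lack the basic stretch, sequester those partners. The 10 genes are switched on as mesoderm forms and divides into heart, somite, connective tissue and muscle lineages, and ESCs are the undifferentiated cells that precede this. H2A.Z is a histone variant found in nucleosomes around transcript starts, and H3K27me3 is the mark placed by Polycomb repressive complex 2 on silent developmental genes.

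The measurement at each gene was the number of bases that enriched regions covered. A region is a stretch of 25-bp bins that passed a Poisson threshold against background, and each library had a list at 1e-9, which gives the values below unless stated otherwise, and a list at the stricter 1e-12. The lists hold a start and an end for each region, with no height, so a longer region is not shown to be a stronger one. The number of reads behind each list is unknown, and with 1 library per group no value here has a replicate error and no test was possible. Over the genome the H2A.Z WT list held 78359 regions, the H2A.Z AP3 list 14599 and the H3K27me3 list 16970, so the H2A.Z AP3 list was the shortest before any gene was looked at.

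The H2A.Z AP3 library had a region within 2 kb of a transcript start at 4 of the 10 genes, against 23.2% of all protein-coding genes. For each of the 4 genes, 30 bases from the middle of that region are shown in the direction of transcription, with CpG dinucleotides in capitals. The Hand1, Hand2 and Twist1 stretches lie in the first coding exon, whereas the Twist2 stretch lies upstream of the gene.
Hand1 (mm9 chr11:57645123-57645152, minus strand): tgctgagccCGgctgatgctgccccagatt
Hand2 (mm9 chr8:59801173-59801202, plus strand): aggaCGaccagaaCGgagaggCGgaggcct
Twist1 (mm9 chr12:34643311-34643340, plus strand): gccaggtacatCGacttcctgtaccaggtc
Twist2 (mm9 chr1:93697186-93697215, plus strand): agacaggttcagcctctccctagtctcagt

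Msgn1 and Tcf15 are shown for contrast, because they had H2A.Z WT regions and neither of the other marks. Their 30 bases come from the middle of the H2A.Z WT region nearest the start, in coding sequence at Msgn1 and upstream of the gene at Tcf15.
Msgn1 (mm9 chr12:11215386-11215415, minus strand): aagatgtctgtccagCGgagaCGgaaggcc
Tcf15 (mm9 chr2:151969011-151969040, plus strand): tatgctcactttgggaCGgaggaaacaggc

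H2A.Z WT marked every one of these genes in ESCs, H3K27me3 most of them and H2A.Z AP3 fewer. An H2A.Z WT region lay within 2 kb of a start at 10 of 10 genes, against 61.7% of all protein-coding genes. H3K27me3 did so at 8 of 10, against 18.2%, with Msgn1 and Tcf15 as the exceptions. H2A.Z AP3 did so at 4 of 10, against 23.2%. The same 8 genes carried H2A.Z WT and H3K27me3 together, against 17.3% of all genes, and Hand1, Hand2, Twist1 and Twist2 carried all 3, against 7.90%. The H2A.Z AP3 count is thus above the genome-wide share by fewer than 2 genes, whereas the H3K27me3 count is above it by more than 6.

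Covered bases varied widely between the genes. H2A.Z WT covered between 800 bp at Msgn1 and 2800 bp at Twist2, with a median of 1325 bp, and the median over the 13782 protein-coding genes with such a region was 650 bp. H3K27me3 covered between 625 bp at Twist1 and 3777 bp at Hand1 in the 8 genes that had it, with a median of 2326 bp against 1000 bp over 4060 genes. H2A.Z AP3 covered 100 to 575 bp in its 4 genes, with a median of 237.5 bp against 200 bp over 5180 genes. Read against all genes with a region of the same library, Twist2 and Hand1 stood high for H2A.Z WT, with more covered bases than 97.7% and 97.1% of them. Hand1 stood high for H3K27me3 as well, above 96.1%, while Twist1 had less H3K27me3 than most genes that carried it and exceeded 37.4% of them.

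**Figure D1:**
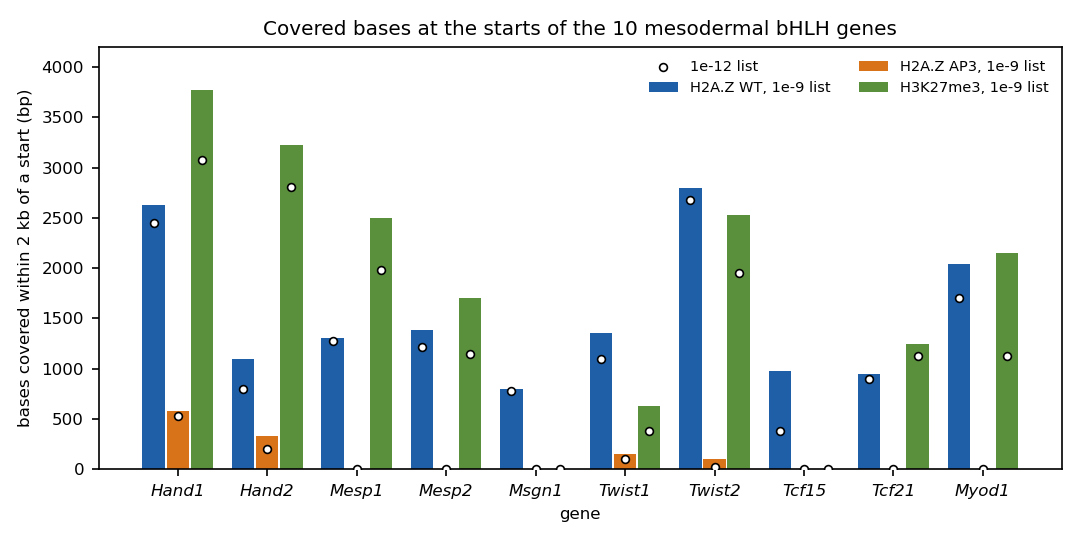
Bases covered within 2 kb of a transcript start (vertical axis, bp) at each of the 10 genes (horizontal axis), 1 library per bar, with bars for the 1e-9 list and open circles for the 1e-12 list. H2A.Z WT bars stand at all genes from 800 to 2800 bp, the H3K27me3 bars are at 0 for Msgn1 and Tcf15, and the H2A.Z AP3 bars are above 0 at Hand1, Hand2, Twist1 and Twist2 alone and reach 575 bp at most.

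The H2A.Z WT regions lay over the protein-coding sequence itself. Together they covered 90.8% of the coding bases of the 10 genes, compared with 11.6% of the coding bases of all protein-coding genes. At Hand1, Mesp1, Mesp2, Msgn1 and Twist2 the whole coding sequence was inside H2A.Z WT regions. Among the 10736 protein-coding genes with no more coding sequence than Mesp2 (1110 bp, the longest of the set), 2.13% were wholly covered in this way. The lowest share was 59.5% at Twist1, where the 5′ part of the coding sequence was mostly outside the regions. These are short genes whose coding sequence begins close to the start, so the position near the start and the coding sequence cannot be told apart in this comparison.

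To place the bHLH domain on this map, the stretch of 50 codons most alike over the set was located by matching the translated sequences without gaps, taking the stretch in Hand2 (residues 99 to 148 of 217) as the reference. Hand1 matched it at 44 of 50 residues, Tcf15 at 31 and Tcf21 at 26, whereas Msgn1 matched at 12, and at such distant genes the stretch may be placed a few residues off. Between Twist1 and Twist2, 47 of 50 residues were identical, but between the paralogues Mesp1 and Mesp2 only 7 were. Mesp1 and Msgn1 shared 31, and Mesp2 and Msgn1 shared 4. The stretches at Mesp1 and Mesp2 may thus not be the same part of the domain, and the values for Mesp2 are for the stretch as placed. In all 10 genes this 150-bp stretch lay in 1 exon, began 272 to 1311 bp downstream of the most upstream start, and was covered in full by an H2A.Z WT region. At the same distances from the start, between 3.56% and 23.9% of all protein-coding genes had their 150 bp covered in full. The lowest of these shares is at the Hand1 distance of 1311 bp, and a second Hand1 start lies 671 bp further in. In the 1e-12 list the stretch was still covered in full at 9 genes, and at Tcf15 no base of it was. The share of all protein-coding genes at these distances was not computed for the 1e-12 list.

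H2A.Z AP3 reached the shared stretch at 3 genes. All 150 bp were covered at Hand1, 122 bp at Hand2 and 75 bp at Twist1, and none at the other 7. Between 0.850% and 6.16% of all protein-coding genes had any base covered by H2A.Z AP3 at these distances, the lowest again at the Hand1 distance. H3K27me3 covered the stretch in full at Hand1, Hand2, Mesp1, Twist2 and Tcf21 and 116 bp of it at Myod1, and it left the stretch bare at Mesp2, Msgn1, Twist1 and Tcf15. At the same distances 3.94% to 5.99% of all protein-coding genes were covered in full by H3K27me3, and 6.85% to 8.84% at any base. In the stricter 1e-12 list H3K27me3 covered the stretch in full at Hand2, Twist2 and Tcf21 only. It covered 16 bp at Hand1, 66 bp at Myod1 and 0 bp at Mesp1. H2A.Z AP3 covered 134 bp at Hand1, 72 bp at Hand2 and 50 bp at Twist1 in its 1e-12 list. For these 1e-12 values too, no share of all protein-coding genes was computed. Other bHLH genes were matched to the same reference. The stretch was covered in full by H2A.Z WT at 9 of 10 neural bHLH genes and 6 of 9 other mesodermal bHLH genes. The share of all protein-coding genes at the distances of these other bHLH genes was not computed. It was bare of all 3 libraries at the E protein genes Tcf3, Tcf4 and Tcf12, where it lies 20643 to 337475 bp from the most upstream start.

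**Figure D2:**
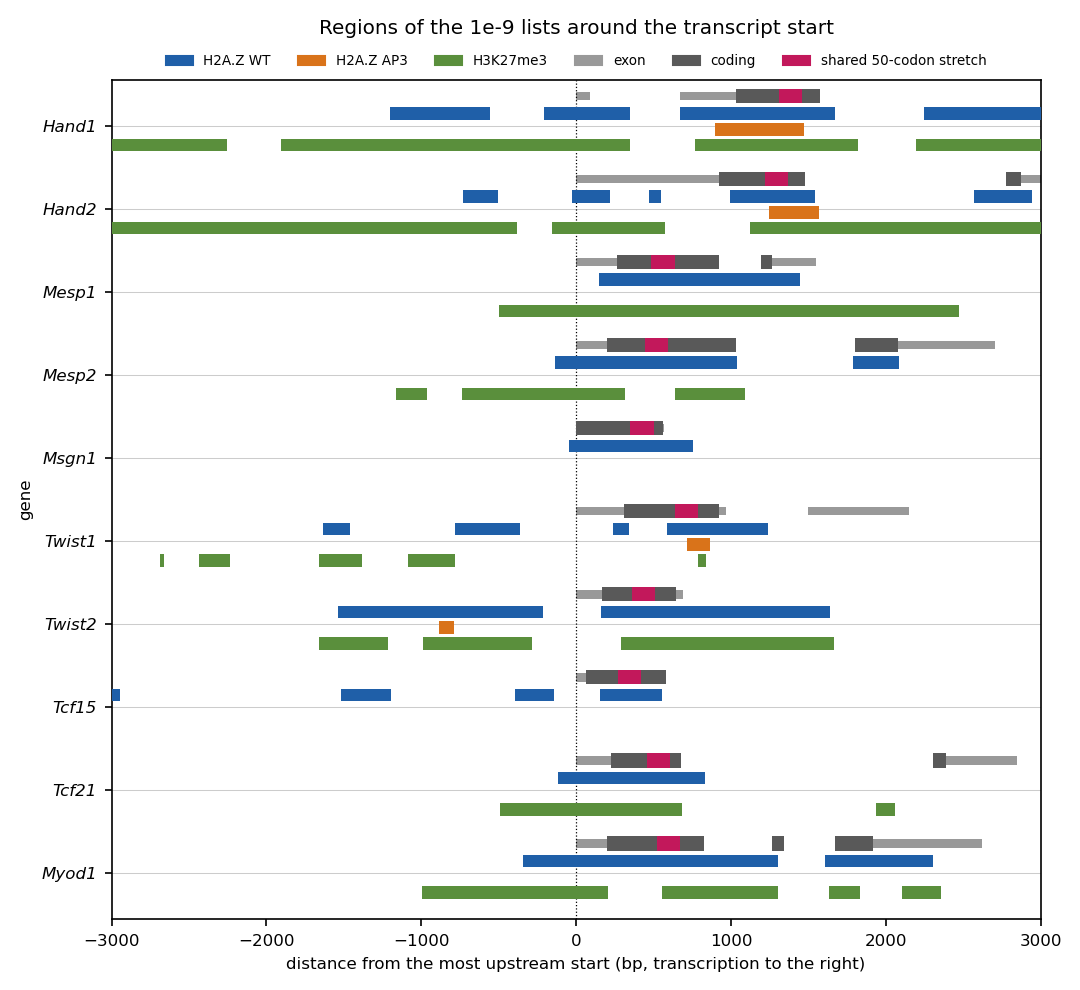
Enriched regions of the 1e-9 lists (blue H2A.Z WT, orange H2A.Z AP3, green H3K27me3) against distance from the most upstream start (horizontal axis, bp) for the 10 genes (vertical axis), cut off at 3000 bp on each side, with exons in light grey, coding sequence in dark grey and the shared stretch of 50 codons in magenta. An H2A.Z WT region lies under the magenta stretch in all 10 rows, and an H2A.Z AP3 region in the Hand1, Hand2 and Twist1 rows.

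Hand1, a factor of the forming heart and of trophoblast, carried the most H2A.Z AP3 and the most H3K27me3 of the set within 2 kb of its starts, where its window was the longest, with 4672 bp against 4001 bp at the others. Over the gene and 10 kb of flank Hand2 had more H3K27me3, 16689 bp against 9825 bp at Hand1. The gene lies at mm9 chr11:57642207-57646320 on the minus strand (ENSMUSG00000037335.7), with starts at 57646320 and 57645649. Within 2 kb of these starts, 2627 bp were covered in the H2A.Z WT library, 575 bp in the H2A.Z AP3 library and 3777 bp in the H3K27me3 library. H2A.Z WT formed 4 regions there, and 96.2% of their bases were also under H3K27me3. The single H2A.Z AP3 region, chr11:57644851-57645425, ran from 895 to 1469 bp downstream of the upstream start. The second start lies 671 bp downstream of that start, so the region is nearer to it. The region had 438 bp in coding sequence and 137 bp in non-coding exon, and every base of it was inside both other libraries' regions. The H2A.Z WT region that straddles the upstream start (chr11:57645976-57646525) held no H2A.Z AP3 base.

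Hand2, its paralogue in heart and limb bud, had the broadest H3K27me3. It lies at mm9 chr8:59799780-59803314 on the plus strand (ENSMUSG00000038193.3). Near its start H2A.Z WT covered 1100 bp in 4 short regions, H2A.Z AP3 325 bp and H3K27me3 3226 bp. When H3K27me3 regions at most 1 kb apart were joined, a stretch of 35150 bp resulted, from position -3754 to position 31395 relative to the start, compared with 11425 bp at Hand1 and at most 3350 bp at any of the other genes. It ran past the end of the gene and over the noncoding gene 5033428I22Rik. H2A.Z WT covered 12.4% of that stretch and H2A.Z AP3 350 bp of it. The main H2A.Z AP3 region, chr8:59801026-59801350, lay 1246 to 1570 bp downstream of the start over the end of the first coding exon (233 bp coding and 92 bp intron), with 300 bp in H2A.Z WT regions and all 325 bp in H3K27me3. A further H2A.Z AP3 region of 25 bp lay 12946 bp downstream.

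The H2A.Z AP3 call at Hand2 stands on a chromosome where that library and the H2A.Z WT library had regions at more genes. On chromosome 8, 50.3% of protein-coding genes had an H2A.Z AP3 region within 2 kb of a start. On the other chromosomes that carry genes of the set the share was 17.6% to 23.5%. For H2A.Z WT the share was 77.5% on chromosome 8. On those other chromosomes it ran from 50.2% on chromosome 7 to 69.7% on chromosome 12. Chromosome 6, which carries no gene of the set, had 43.6% for H2A.Z AP3. The comparison lists below hold genes on chromosomes 6 and 8, and the same limit applies to their counts. The part of the chromosome 8 excess in the Hand2 regions was not tested. Without Hand2 the H2A.Z AP3 count was 3 of 9 genes. The shares given for all protein-coding genes include chromosomes 6 and 8, and no share without them was computed.

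Mesp1, which marks the earliest cardiovascular progenitors, and Mesp2, which sets somite boundaries, lie head to head on chromosome 7 with 16939 bp between their starts. Mesp1 (chr7:86937127-86938674, minus strand, ENSMUSG00000030544.5) had 1300 bp under H2A.Z WT, 0 under H2A.Z AP3 and 2502 bp under H3K27me3. Its H2A.Z WT bases formed a single region, chr7:86937226-86938525, which held the whole coding sequence and lay wholly inside the H3K27me3 region. Mesp2 (chr7:86955613-86958317, plus strand, ENSMUSG00000030543.8) had 1388 bp, 0 and 1700 bp in the same order, and 61.2% of its H2A.Z WT bases were under H3K27me3. In the 1e-9 lists the marks therefore coincided more closely at Mesp1 than at Mesp2, and H2A.Z AP3 was not called at the start of either. The difference was smaller in the 1e-12 lists. There H3K27me3 lay over 775 of 1275 bp of H2A.Z WT at Mesp1 and 575 of 1213 bp at Mesp2.

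Between the Mesp genes H2A.Z WT occurred without H3K27me3. Within 10 kb upstream of Mesp1 it formed 4 regions of 450 to 950 bp, of which the pair farthest from Mesp1 also falls in the Mesp2 flank and was counted under both genes. No base of these regions was under H3K27me3. An H2A.Z AP3 region of 175 bp (chr7:86930326-86930500) lay on the other side, 8174 to 8348 bp downstream of the Mesp1 start, with 150 bp inside an H2A.Z WT region and no H3K27me3. It is the region that brings Mesp1 into the count over wider windows given below.

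Msgn1, a regulator of presomitic mesoderm, had H2A.Z WT alone. The annotation gives it a single exon of 567 bp at mm9 chr12:11215188-11215754 on the minus strand (ENSMUSG00000047002.1) that holds coding sequence only, so its start is that of the coding sequence. An H2A.Z WT region of 800 bp spanned the entire model, from 46 bp before to 753 bp after that start. H2A.Z AP3 and H3K27me3 covered 0 bp near the start and 0 bp in the gene and 10 kb of flank. Tcf15, a factor needed for somites to become epithelial (chr2:151969297-151974833, plus strand, ENSMUSG00000068079.5), was the other gene with H2A.Z WT alone. Its 975 bp were split over 3 regions, and H2A.Z AP3 and H3K27me3 were again at 0 bp, in the flanks too.

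**Figure D3:**
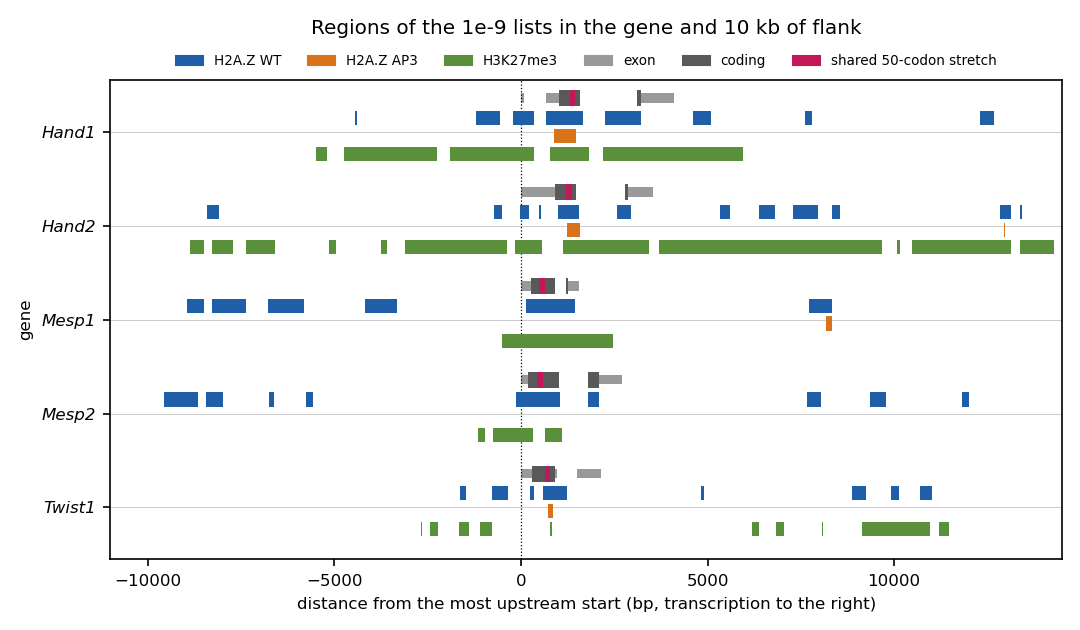
Enriched regions of the 1e-9 lists over the gene and 10 kb on each side for Hand1, Hand2, Mesp1, Mesp2 and Twist1 (rows), against distance from the most upstream start (horizontal axis, bp), with lanes and grey shades as in the map of regions near the starts. H3K27me3 runs over most of the Hand2 row, H2A.Z WT regions upstream of Mesp1 and Mesp2 have no H3K27me3 lane beneath them, and H2A.Z AP3 appears as 1 region in the Hand1, Mesp1 and Twist1 rows, as a pair in the Hand2 row and not in the Mesp2 row.

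Twist1 and Twist2, regulators of mesenchyme, differed in where and how much they were marked. At Twist1 (chr12:34642536-34644682, plus strand, ENSMUSG00000035799.5) H2A.Z WT covered 1350 bp, H2A.Z AP3 150 bp and H3K27me3 625 bp. H3K27me3 lay mostly upstream of the Twist1 start, with 575 bp there and 50 bp downstream, and only 16.7% of the H2A.Z WT bases were under it. At Twist2 (chr1:93698038-93744605, plus strand, ENSMUSG00000007805.3) the 3 values were 2800, 100 and 2525 bp, and 84.8% of H2A.Z WT bases were under H3K27me3. Its H2A.Z WT bases formed a pair of broad regions, 1325 bp upstream of the start and 1475 bp downstream, with no region over the start itself.

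The H2A.Z AP3 regions of the Twist genes fell on opposite sides of the start. At Twist1 the region (chr12:34643251-34643400) was 715 to 864 bp downstream, lay wholly in coding sequence and in H2A.Z WT, and shared 50 bp with H3K27me3. At Twist2 it was 887 to 788 bp upstream (chr1:93697151-93697250), outside the gene, and lay inside both other libraries' regions. At 25-bp resolution and aligned at the start, the Twist genes shared 50 H2A.Z WT bins and no H2A.Z AP3 bin. The Hand genes shared 39 H2A.Z WT bins and 9 H2A.Z AP3 bins, and the overlap of their H3K27me3 was the highest of the 3 paralogue pairs, with a Jaccard index (shared bins over all bins covered in either) of 0.717 against 0.436 for the Mesp genes and 0.2 for the Twist genes.

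Tcf21, a factor of epicardium and of kidney and lung mesenchyme, and Myod1, which commits cells to skeletal muscle, carried H2A.Z WT and H3K27me3 without H2A.Z AP3. Tcf21 (chr10:22537085-22539934, minus strand, ENSMUSG00000045680.7) had 950 bp under H2A.Z WT in 1 region over the start and first exon, and 1242 bp under H3K27me3. Myod1 (chr7:53631844-53634462, plus strand, ENSMUSG00000009471.3) had 2044 bp and 2150 bp. Its H2A.Z WT regions ran from 343 bp before the start to 2306 bp after it with 1 gap, over 916 of 954 coding bases. H2A.Z AP3 was at 0 bp at both genes and in their flanks.

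Summed over the 10 genes, the H2A.Z AP3 bases came to 7.50% of the H2A.Z WT bases, 1150 bp against 15334 bp. Over all protein-coding genes the value was 14.3%. Among the 4 genes with both, the share was 29.5% at Hand2, 21.9% at Hand1, 11.1% at Twist1 and 3.57% at Twist2. Since the lists were called on libraries of unknown depth, these shares compare lists and not amounts of histone. H2A.Z AP3 was found at 4 of the 8 genes with H2A.Z WT and H3K27me3, against 45.7% of the 3864 protein-coding genes in that state, and at 0 of the 2 with H2A.Z WT alone, against 31.5% of 9918. The counts thus lay near the shares of all genes in the same state.

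H2A.Z WT and H3K27me3 shared more of their bases here than over all genes. Of the H2A.Z WT bases within 2 kb of the starts, 68.8% were under H3K27me3, and over all protein-coding genes 17.0% were. The latter value includes the 9918 genes with H2A.Z WT and no H3K27me3 region, which can share no base. The share among the 3864 genes with both was not computed, so the contrast partly repeats the count of genes with both. Conversely, 59.5% of the H3K27me3 bases were under H2A.Z WT, against 36.1%. The share varied from 16.7% of H2A.Z WT bases at Twist1 to all of them at Mesp1 among the 8 genes with both.

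In distance from the start, the H2A.Z WT regions of these genes were most frequent at the distance where those of all genes were, just downstream of the start. The 6 bins with the most genes covered, 9 of the 10, lay between 187 and 337 bp downstream, where 1 bin, at 237 bp, was covered in 8, and 35.7% of all protein-coding genes were covered at 187 bp, their own peak. Within 2 kb of the most upstream start, 71.5% of H2A.Z WT bases were downstream, against 65.4% over all genes, and 9 of the genes had more bases downstream than upstream, Tcf15 being the exception with 400 bp against 575 bp. H2A.Z AP3 was covered at 187 bp, the peak over all genes with 5.19% of them, in 0 of the 10. The most genes covered in any H2A.Z AP3 bin was 2, Hand1 and Hand2, from 1262 to 1462 bp downstream. These distances are from the most upstream start, and Hand1 has a second start 671 bp further in. H3K27me3 was split evenly, with 51.8% of its bases downstream against 61.9% over all genes.

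**Figure D4:**
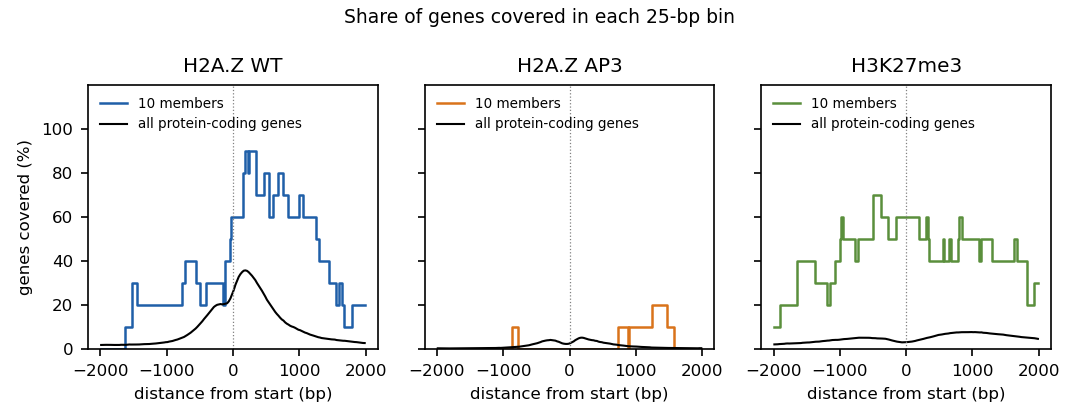
Share of genes covered (vertical axis, percent) in each 25-bp bin by distance from the most upstream start (horizontal axis, bp) in the 3 libraries, with coloured steps for the 10 genes, where 1 gene is a step of 10 percentage points, and a black line for all protein-coding genes. The H2A.Z WT steps reach 90% between 187 and 337 bp, apart from 80% at 237 bp, and the H2A.Z AP3 steps are at 0 where the black line peaks at 187 bp.

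Over the wider span of the gene with 10 kb on each side, an H2A.Z WT region occurred at 10 of 10 genes, against 75.1% of all protein-coding genes, an H2A.Z AP3 region at 5, against 39.3%, and an H3K27me3 region at 8, against 24.9%. Mesp1 was the gene gained for H2A.Z AP3. These spans held 59 distinct H2A.Z WT regions with a median length of 375 bp, 6 H2A.Z AP3 regions with a median of 162.5 bp and 46 H3K27me3 regions with a median of 387.5 bp. Msgn1 and Tcf15 thus had no H3K27me3 region in the gene or its flanks.

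In the 1e-12 lists the same genes were called near the start as in the 1e-9 lists, 10 for H2A.Z WT against 60.0% of all protein-coding genes, 4 for H2A.Z AP3 against 18.8%, and 8 for H3K27me3 against 15.7%. All 4 of the H2A.Z AP3 regions near the starts still held a 1e-12 region, while 61.7% of the H2A.Z AP3 regions near all starts did. For H2A.Z WT it was 22 of 24 regions against 86.3%, and for H3K27me3 17 of 21 against 75.0%. Relative to their length in the 1e-9 lists, the covered bases shrank most at Twist2 for H2A.Z AP3, from 100 to 25 bp, and at Tcf15 for H2A.Z WT, from 975 to 375 bp.

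Of the genes that act with these factors, the E protein and Id genes were marked less uniformly. An H2A.Z WT region lay within 2 kb of a start at 2 of 3 E protein genes (Tcf4 with 425 bp and Tcf12 with 1050 bp, but not Tcf3), H2A.Z AP3 at none of them, and H3K27me3 at Tcf12 alone with 100 bp. At the Id genes the counts were 3, 1 and 3 of 4. The shares of all protein-coding genes were 61.7%, 23.2% and 18.2% in the same order. Id3 had the most H3K27me3 of these with 4100 bp, in a window of 5478 bp over 3 starts. Id4 was the one with H2A.Z AP3, 375 bp, and Id1 had no region of any library.

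Further mesodermal bHLH genes fell into those with and those without H3K27me3. H2A.Z WT was present at 9 of 9, H2A.Z AP3 at 2 and H3K27me3 at 4. The muscle factors Myf5, Myf6 and Myog were singled out after their values were seen. They had 986, 525 and 875 bp of H2A.Z WT and 0 bp of H3K27me3, in contrast to the 2150 bp at Myod1. Tal1, a blood and endothelial factor, had 5100 bp of H3K27me3 in a window of 7083 bp over 4 starts. The H2A.Z AP3 regions were at Msc with 125 bp and at Lyl1 with 456 bp, the latter on chromosome 8.

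Mesodermal factors of other families were marked by H2A.Z AP3 at 10 of 16, by H2A.Z WT at 15 and by H3K27me3 at 14. All protein-coding genes had shares of 23.2%, 61.7% and 18.2% in that order. Foxc1 had the most H2A.Z AP3 with 600 bp, and T (brachyury) had 0 bp beside 1550 bp of H2A.Z WT and 3588 bp of H3K27me3. Tbx6 had no region in any library. Neural bHLH genes, the closest family outside mesoderm, had H2A.Z WT at 10 of 10, H2A.Z AP3 at 6 and H3K27me3 at 9, with 975 bp of H2A.Z AP3 at Olig3 as the most of any gene listed here. Some of these H2A.Z AP3 calls were short and absent from the stricter list. There H2A.Z AP3 fell to 0 bp at Foxc2 (from 50 bp), Meox2 and Snai1 (from 75 bp each), Olig2 (from 25 bp) and Nhlh2 (from 50 bp). It rose from 0 bp to 200 bp at Pax1 and to 675 bp at Atoh1. The 4 calls among the 10 genes were kept in that list. Whether 4 of 10 differs from these shares was not tested.

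**Figure D5:**
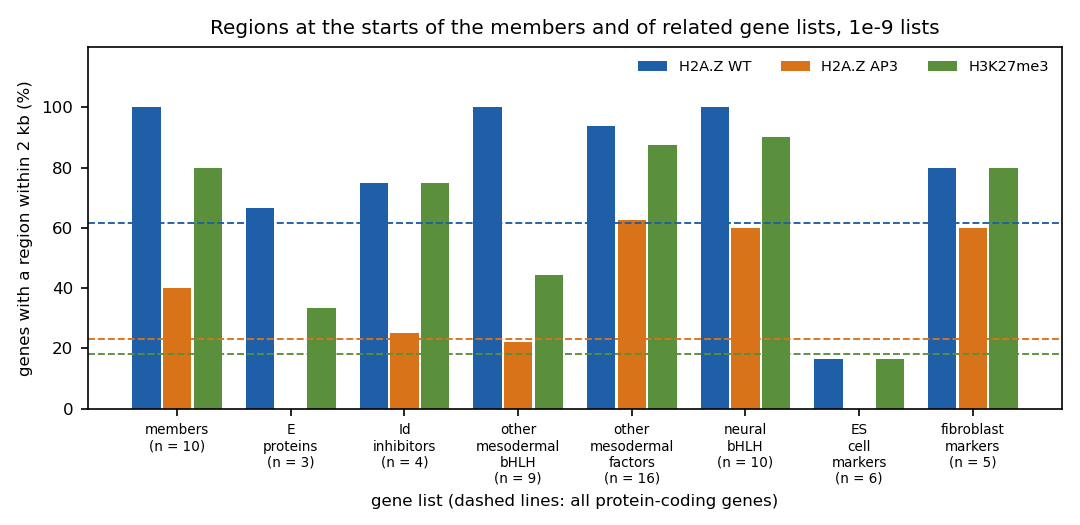
Percent of genes with a region within 2 kb of a transcript start (vertical axis) in the 1e-9 lists, for the 10 genes (members) and 7 comparison lists (horizontal axis, number of genes below each name), with dashed lines at the shares of all protein-coding genes. H2A.Z WT is at or above its dashed line in all lists but the ES cell markers, and H2A.Z AP3 stands at 40% in the members, above its line at 23.2%. Genes with several starts have longer windows.

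Marker genes were looked up in the same way, although region lists do not measure expression and cannot show which cells were present. Of 6 ES cell markers, Pou5f1, Sox2, Nanog, Zfp42 and Tdgf1 had 0 bp in all 3 libraries. Esrrb had 1375 bp of H2A.Z WT and 2908 bp of H3K27me3, in a window of 16243 bp over its 5 starts. Of 5 fibroblast genes, 4 had H2A.Z WT and H3K27me3, 3 of these also had H2A.Z AP3, and Col3a1 had no region. In the stricter list H2A.Z AP3 fell to 0 bp at Col1a1 (from 75 bp) and Thy1 (from 25 bp). It kept 125 bp at Col1a2 and rose from 0 bp to 25 bp at Prrx1.

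The gene whose covered bins were most like those of Hand1, the gene with both the most H2A.Z AP3 and the most H3K27me3 within 2 kb of a start, was Foxb2, with a Jaccard index of 0.766 over the 3 libraries and 243 covered bins, followed by Gp1bb at 0.688 and Bhlhe23 at 0.671. Foxb2 had 1750 bp of H2A.Z WT, 475 bp of H2A.Z AP3 and 3576 bp of H3K27me3. Bhlhe23 reached this likeness with no H2A.Z AP3. Hand2 was the most alike of the other mesodermal bHLH genes, at 0.577.

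Base composition differed greatly between genes that were marked alike. Within 500 bp of the most upstream start the number of CpG dinucleotides ran from 23 at Msgn1 to 117 at Tcf15, with a median of 46.5 against 41 over all protein-coding genes. Those extremes belong to the pair of genes with H2A.Z WT alone. Twist1 had 114 and Twist2 90, whereas Hand1 had 26. Per 100 bp of covered sequence the 10 genes had 5.81 CpG under H2A.Z WT, 5.57 under H2A.Z AP3, 3.89 under H3K27me3 and 2.39 where no library had a region, and over all protein-coding genes the values were 5.63, 4.78, 3.40 and 1.55. These values pool genes of very different density, and the order did not hold at each gene. At Hand2 the sequence with no region was the densest, with 9.23 against 7.36 under H2A.Z WT and 6.46 under H2A.Z AP3. At Twist1 such sequence (5.95) exceeded that under H2A.Z AP3 (5.33), and at Hand1 the H2A.Z AP3 sequence (5.91) exceeded that under H2A.Z WT (4.34). E-box motifs, the sites that bHLH dimers bind (CANNTG, which reads the same on both strands), numbered 1 to 4 within 500 bp of these starts, with a median of 2 against 4 over all genes, 97.5% of which hold at least 1.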

How the data were processed

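ChIP-Seq was performed by the authors on mouse ESCs with 1 library each for H2A.Z WT, H2A.Z AP3 (both anti-GFP) and H3K27me3, grouped by the genotype and antibody labels. Per the study's methods, reads were aligned to mm9 with Bowtie 0.12.3, extended and counted in 25-bp bins, and bins that passed a Poisson threshold of 1e-9 and a minimal fold over input were kept. The deposited lists hold only the start and end of each region, which is no read count and no signal, 2 lists per library, the other named for 1e-12. Depth is unknown, so list lengths mix depth with enrichment. The input was not analysed here.

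The genes and comparison lists were chosen with earlier results of these data known. Windows were 2 kb each side of every transcript start, and the gene with 10 kb of flank (GENCODE vM1, same assembly), with overlaps of at least 1 bp. Values for all 22350 protein-coding genes on 19 autosomes and X stand beside those of the members. The text names all members, the 3 genes most like the member with the most H2A.Z AP3 and H3K27me3, and genes of the comparison lists with the most or no covered bases, up to 4 of a list, with these exceptions. All ES cell markers are named, and Myf5, Myf6, Myog and Msc were named in addition after their values were seen. With 1 library per group no test was run. Bases of mm9 were read from the genome sequence, and promoter sequences from RefSeq matched 7 of 10 members. Interval code was tested on 200 simulated sets, all with equal answers. Alternatives covered the stricter list, windows, starts, flanks and a minimum of 100 covered bases. Those added after the data were seen were the union of lists, RefSeq starts and the omission of chromosomes 6 and 8. The shared 50-codon stretch, the coding coverage and the joined H3K27me3 regions were also added then. Python 3.11.15, NumPy 2.4.6, Matplotlib 3.10.9 and samtools 1.23.1 were used.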

Additional observations from a re-analysis of the deposited data

Results flagged for a closer look

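In 6 places near these genes the stricter 1e-12 list held a region with no base in the 1e-9 list of the same library, although a region that passes the stricter threshold would also pass the looser one. None of them lay within 2 kb of a start, so no call near a start rests on them. For H2A.Z AP3 they were 25 bp long near Hand2 (8346 bp downstream of the start), 25 bp near Mesp1 (7749 bp downstream), 250 bp between Mesp1 and Mesp2 (chr7:86945376-86945625) and 25 bp at Myod1 (2157 bp downstream). For H2A.Z WT there was 1 of 275 bp in the intron of Twist2 (31488 bp downstream), and for H3K27me3 1 of 25 bp at Tcf21 (2484 bp downstream). Near starts of comparison genes the 1e-12 list also held bases where the 1e-9 list held none. For H2A.Z AP3 these were 675 bp at Atoh1, 200 bp at Pax1 and 25 bp each at Myog and Prrx1. They were 125 bp of H2A.Z WT at Tcf3 and 75 bp of H3K27me3 at Neurod1, so these absences hold in the 1e-9 lists only. The study's methods describe the binning, the Poisson threshold of 1e-9 and the fold over input, and do not name a threshold of 1e-12.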

How the results depend on the processing

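Of 70 alternative values over 12 counts and covered lengths, 67 stayed within 1.5 times the reported one. The bases under H3K27me3 near the starts, 17747 bp, were 11043 bp with a window of 1 kb and 28478 bp with 5 kb, as a longer window holds more bases. The count of genes with H2A.Z AP3 in the gene and flank, 5, was 3 with no flank, since the Mesp1 and Twist2 regions lie outside the gene. Hand2 lost its H2A.Z AP3 call with a window of 1 kb, and in the 1e-12 list the wider span gained Mesp2 and Myod1. The 10 calls of H2A.Z WT and the 8 of H3K27me3 near the starts were the same in number under every alternative run, except that without Hand2, on chromosome 8, they were 9 and 7. No paired analysis was possible because each group has 1 library, and for the same reason no library could be left out. The depth of the libraries is unknown, so an absent region does not show an absent histone or mark.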
